A study of Homo sapiens with 20 samples.

Results

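Dense-core vesicles are the organelles in which neurons and endocrine cells store peptide messengers, and 10 genes of this pathway were followed while human neural progenitor cells differentiated towards neurons. The 10 genes were set by name: the granins CHGA, CHGB, SCG2, SCG3 and VGF, the small secretory protein SCG5, the prohormone convertases PCSK1 and PCSK2, the carboxypeptidase CPE and the neuropeptide precursor SST. Each gene was matched by symbol to 1 of 20237 protein-coding records in a table of 38369 records, and none of the 10 records was shared with another symbol. A mean of at least 1 FPKM (sequenced fragments per unit of transcript length and of library size) over the 7 days was required before a difference was counted, and 9 of the 10 genes and 11793 coding records passed. SCG5, at a mean of 0.248 FPKM, did not pass and is described by its levels.

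Polyadenylated RNA was sequenced from progenitors derived from the established human embryonic stem cell line H1, so all cultures came from 1 line. Differentiation was started by withdrawing FGF, a mitogen kept at 20 ng/ml for the progenitors, and adding BDNF, a neurotrophic factor, at 10 ng/ml. Cultures were taken on day 0, on days 1, 2, 4 and 5, and later on days 11 and 18, with 3 cultures on each day except day 5, which has 2 because the submitters removed 1 as an outlier. Cells taken from day 5 onwards had been replated on day 4 onto Poly-D-lysine and laminin, so the step from day 4 to day 5 spans both a day of culture and a change of surface, and these cannot be told apart. The deposited table gives 1 FPKM value per record for each day, pooled over its cultures. A spread between cultures could therefore not be computed, the depth is unknown, and every difference below is a value with no test. Whether the cultures of neighbouring days overlap in level can therefore not be stated for any gene.

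Peptide hormones and neuropeptides are made as long precursors that are sorted into dense-core vesicles with the granins, acidic proteins that condense the vesicle contents. Inside the vesicle the convertases cut precursors next to pairs of basic amino acids, and CPE then trims the basic residues from the new ends. The finished peptides are held until calcium enters the cell and the vesicle fuses with the membrane, and the levels of granins and convertases are a classical sign of this regulated secretory route in neurons and endocrine cells.

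The substrate that the enzymes share can be read at the end of the SST coding sequence. SST, which encodes the inhibitory peptide somatostatin, ends in the 51 bases given here from the genome sequence GRCh37, minus strand, chr3:187386853-187386903, in exon 2 of the gene. The capitals mark the codons of an Arg Lys pair, the basic pair next to which the precursor is cut, and the 14 codons that follow, before the stop codon, encode the short form of somatostatin.
SST: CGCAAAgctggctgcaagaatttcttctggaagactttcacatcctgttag

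A subset of 4 genes, CHGA, VGF, PCSK1 and SST, also shared a promoter feature: a full cyclic AMP response element, the palindrome TGACGTCA, which is bound by transcription factors of the CREB family. The windows run from 100 bases before to 20 bases after the RefSeq start (GRCh38.p14, in the direction of transcription), with the element in capitals. They lie at chr14:92923050-92923169 (plus strand) for CHGA, chr7:101165550-101165669 (minus strand) for VGF, chr5:96433229-96433348 (minus strand) for PCSK1 and chr3:187670375-187670494 (minus strand) for SST.
CHGA: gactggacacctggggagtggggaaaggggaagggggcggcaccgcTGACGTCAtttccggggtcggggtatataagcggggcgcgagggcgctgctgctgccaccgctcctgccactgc
VGF: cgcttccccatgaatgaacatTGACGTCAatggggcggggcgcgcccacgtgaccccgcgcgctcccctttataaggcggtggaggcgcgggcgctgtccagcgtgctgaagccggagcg
PCSK1: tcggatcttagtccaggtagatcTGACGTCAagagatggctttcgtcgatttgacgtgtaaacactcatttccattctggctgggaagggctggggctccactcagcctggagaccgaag
SST: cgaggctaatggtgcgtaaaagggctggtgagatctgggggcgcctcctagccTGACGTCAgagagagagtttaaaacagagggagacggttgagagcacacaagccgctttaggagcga

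The element starts 54 bases before the start of CHGA, 79 before VGF, 77 before PCSK1 and 47 before SST. RefSeq promoter entries, from 250 bases before to 50 bases after a start, were matched for 8 of the 10 genes, CHGB and SCG2 having no entry, and 4 of the 8 hold the full element, in PCSK1 in 1 of its 2 entries. It is held by 649 of all 35116 entries, 1.85%. Among the 8560 symbols of coding records that passed the filter, 343 hold it (4.01%), and the share was 4.69% for the 597 that were at least 2-fold higher on day 18 than on day 0 and 3.88% for the 2600 that were at least 2-fold lower. The shorter core TGACG, read on either strand and contained in every full element, is held by 8 of the 8 genes with an entry, by 41.1% of the 8560 symbols and by 24.6% of all entries. A match of these letters is a description of the window only.

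**Figure D1:**
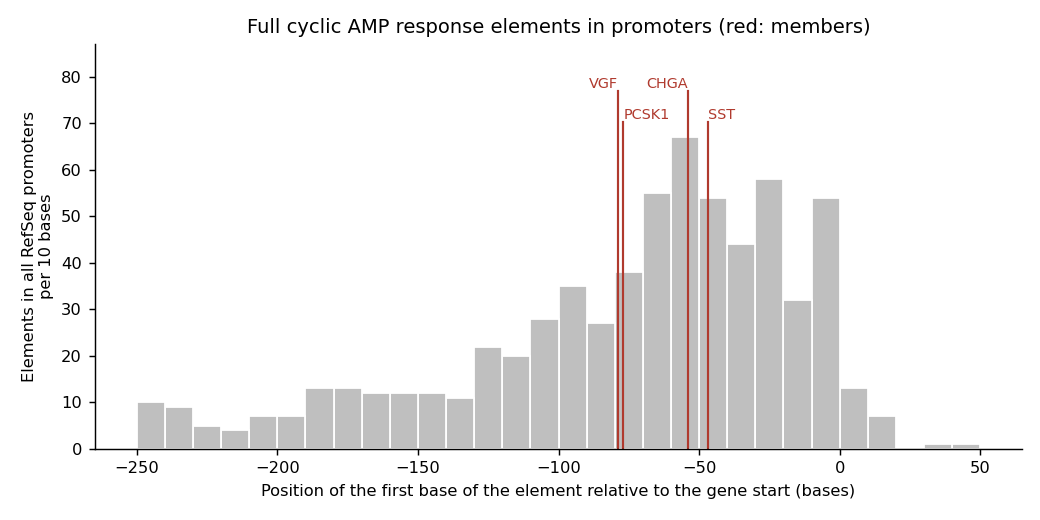
Number of full cyclic AMP response elements per 10 bases (vertical axis) by the position of their first base relative to the gene start (horizontal axis, bases), over all RefSeq promoter entries, with the elements of CHGA, VGF, PCSK1 and SST as red lines. The 4 red lines lie between 79 and 47 bases before the start, and 215 of all 671 elements (32.0%) lie between 80 and 40 bases before it.

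Between day 0 and day 18, 6 of the 9 genes that passed the filter were at least 2-fold higher and 0 were at least 2-fold lower. The 6 were the granins CHGA, CHGB and SCG3, the convertase PCSK1, the carboxypeptidase CPE and SST. Differences are given as day 18 minus day 0 in log2(FPKM + 0.1), a scale that understates the change of low genes. Of all 11793 coding records that passed, 893 (7.57%) were at least 2-fold higher and 3529 (29.9%) at least 2-fold lower. The median difference was 2.60 over the 9 genes and -0.60 over all coding records that passed. Relative to that median, 7 of the 9 genes were at least 2-fold higher, SCG2 being added, and 0 lower, beside 14.7% of coding records higher and 12.1% lower. Of the 9 genes, VGF alone was below its day 0 level. Over the same days the summed level of 8 neuron markers went from 366 to 1371 FPKM. Most of this rise was STMN2 (32.3 to 727), while GAP43 went from 193 to 173. In RNA from whole cultures more cells of a type and more RNA per cell cannot be told apart.

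**Figure D2:**
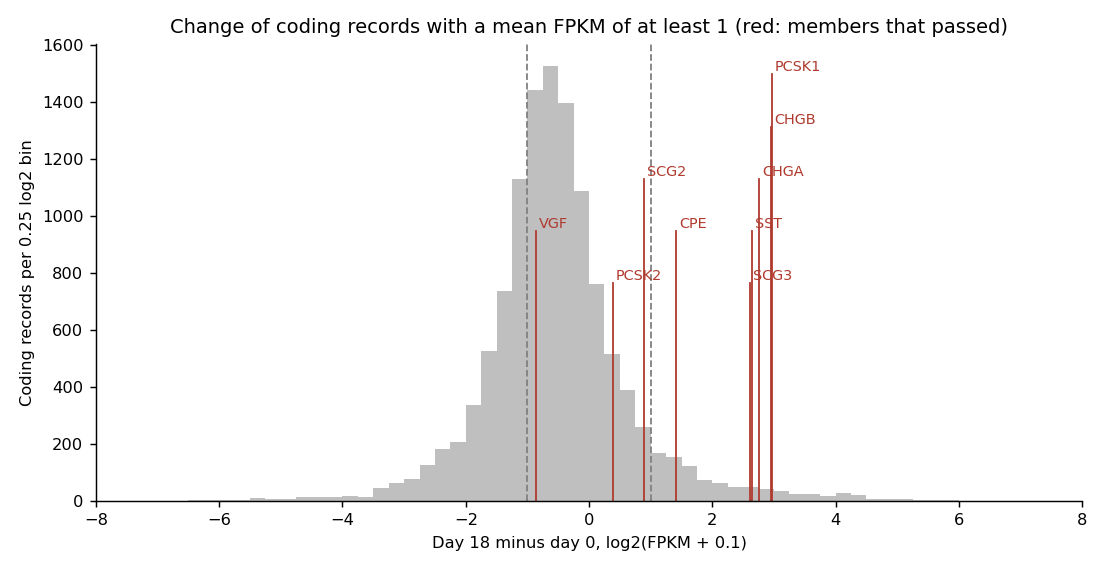
Day 18 minus day 0 in log2(FPKM + 0.1) (horizontal axis) for the 11793 coding records with a mean of at least 1 FPKM, as records per 0.25 log2 (grey, vertical axis), with 2 records beyond the axis. Red lines mark the 9 genes, their heights being for legibility only, and dashed lines mark 2-fold. CHGA, CHGB, SCG3, PCSK1 and SST lie between 2.60 and 2.96, while VGF, at -0.86, lies within the bulk of the records.

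The chromogranins CHGA and CHGB, the most widely used markers of dense-core vesicles, were low in the progenitors and higher on each later day than on the day before. CHGA (chr14:93389445-93401636, hg19, plus strand) stood at 1.36, 1.66, 1.79, 2.93, 4.74, 7.64 and 9.75 FPKM on the 7 days in turn, from day 0 to day 18, a 7.19-fold difference between the first and last day. CHGB (chr20:5891974-5906003, plus strand) followed with 1.80, 4.20, 4.55, 6.43, 8.78, 11.9 and 14.6 FPKM over the same days, 8.13-fold. The difference on the log2 scale was 2.76 for CHGA and 2.95 for CHGB, and 1.86% and 1.56% of coding records had a larger one. The genes differed in the timing of their first step: CHGB was already 2.34-fold higher on day 1 than on day 0, whereas CHGA was 1.22-fold higher. The ratio of CHGB to CHGA accordingly went from 1.33 on day 0 to 2.54 on day 2 and was 1.5 on day 18.

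SCG3, a granin that binds CHGA and helps to carry it to the vesicle membrane, had the same steady course. Its levels (chr15:51973550-52013222, plus strand) were 3.45, 5.67, 6.28, 8.00, 11.6, 18.5 and 21.5 FPKM, 6.23-fold from day 0 to day 18. CHGA, CHGB and SCG3 were the 3 of the 9 genes with a higher value at all 6 steps, a course that 239 of the 11793 coding records had (2.03%).

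SCG2, the granin from which the peptide secretoneurin is cut, first went down. SCG2 (chr2:224461660-224467121, minus strand) measured 11.2 FPKM on day 0, 5.43 on day 1, 7.10 on day 2, 8.52 on day 4, 17.2 on day 5, 19.2 on day 11 and 20.9 on day 18. Its lowest value was on day 1 and its value at day 18 was 1.87-fold that of day 0 (0.90 on the log2 scale, just under 2-fold, with 8.28% of coding records above it). Measured from its lowest day, the range was 3.86-fold, and the largest step up, 2.02-fold, lay between day 4 and day 5, the step with the replating.

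VGF, a neurotrophin-responsive member of the granin group, was the most abundant of the 10 genes on days 0, 1, 2, 4 and 5 and had no steady direction. Its levels (chr7:100805791-100808852, minus strand) were 53.9, 34.4, 64.1, 24.9, 45.0, 11.5 and 29.6 FPKM, so that it was down and up in turn at each of the 6 steps, a sequence that 141 coding records had (1.2%). The highest value, on day 2, was 5.58-fold the lowest, on day 11. Day 0 was 1.82-fold day 18, a difference of -0.86, or -0.26 relative to the median of coding records. The step from day 5 to day 11 was the largest, at -1.96 on the log2 scale, and was followed by 1.36 up to day 18. None of the other 9 genes alternated in this way.

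SCG5, the chaperone that accompanies PCSK2 until the enzyme is activated, was listed at a low level on every day. Its record (chr15:32933870-32989298, plus strand) held 0.294, 0.282, 0.163, 0.134, 0.244, 0.294 and 0.328 FPKM, so that it never exceeded 0.328 FPKM and its rank among coding records was 12784 on day 0 and 12831 on day 18. A lincRNA record on the opposite strand overlaps its exons and reached 0.137 FPKM on day 0. Counting by strand is not stated, so the reads of such pairs cannot be told apart at this level.

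**Figure D3:**
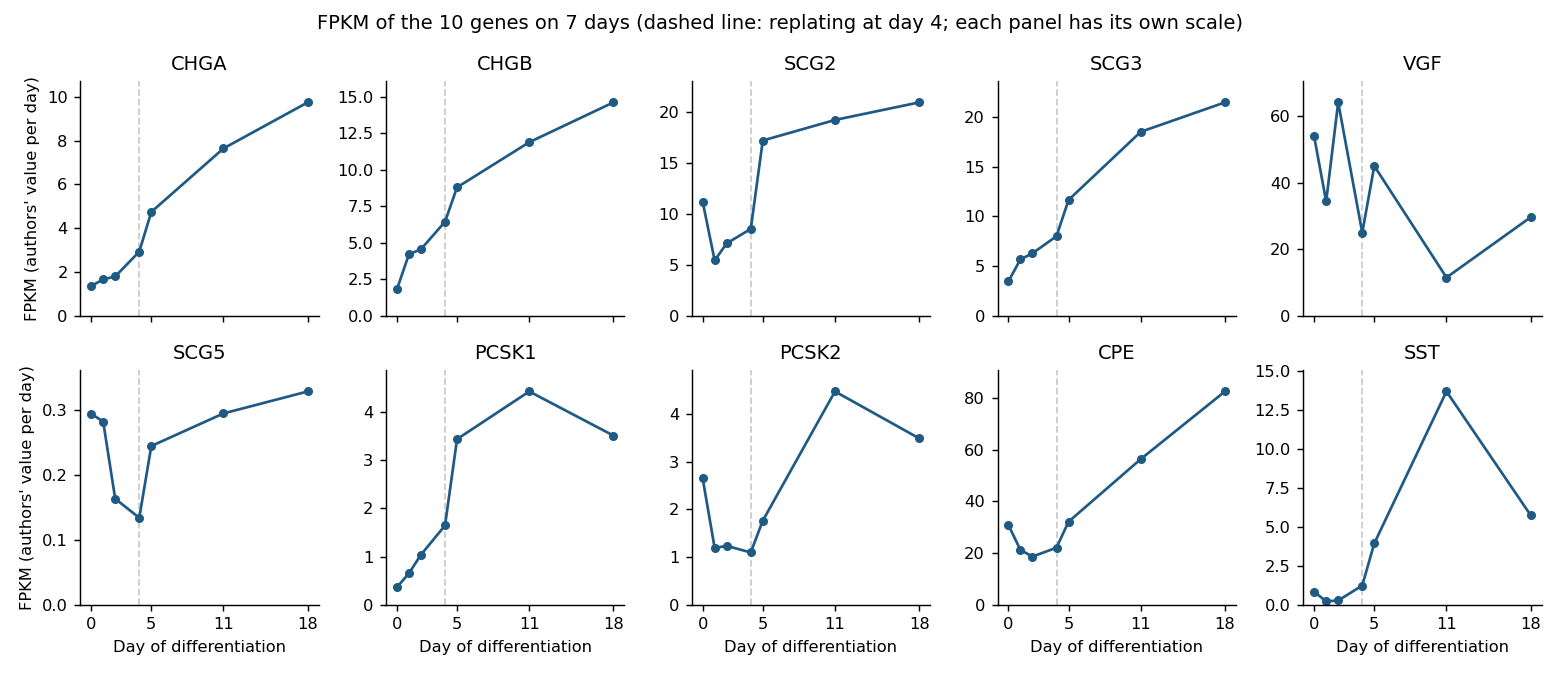
FPKM of each of the 10 genes (vertical axis, own scale in each panel, starting at 0) on days 0 to 18 (horizontal axis), with 1 deposited value per day; the dashed line is the replating on day 4. CHGA, CHGB and SCG3 climb throughout, while SCG2, SCG5, PCSK2, CPE and SST dip first. VGF alternates, and PCSK1, PCSK2 and SST are highest on day 11.

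The convertases followed different courses. PCSK1 (chr5:95726119-95768952, minus strand), the convertase that makes the first cuts in many precursors, had 0.363, 0.652, 1.04, 1.65, 3.44, 4.43 and 3.51 FPKM. It was higher on each day up to day 11, when it was 12.2-fold its level on day 0, and on day 18 it was 9.67-fold (2.96 on the log2 scale, with 1.54% of coding records above it). PCSK2 (chr20:17206752-17465220, plus strand), which often makes the later cuts, had 2.66, 1.19, 1.24, 1.10, 1.76, 4.48 and 3.49 FPKM. PCSK2 was thus 2.23-fold lower on day 1 than on day 0, stayed below its day 0 level through day 5, and on day 18 was 1.31-fold day 0 (0.38). The balance of the pair shifted accordingly: PCSK2 was 7.31-fold PCSK1 on day 0, PCSK1 was 1.95-fold PCSK2 on day 5, and their ratio was 0.989 on day 11 and 1.01 on day 18.

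CPE, the carboxypeptidase that works after both convertases, was the most abundant of the 10 genes from day 11. On the 7 days CPE (chr4:166300097-166419481, plus strand) measured 30.9, 21.2, 18.6, 22.1, 32.1, 56.4 and 82.6 FPKM. It had its lowest value on day 2, regained its day 0 level by day 5 and was 2.67-fold day 0 on day 18 (1.42 on the log2 scale). Ranked by level among all coding records, CPE moved from place 2549 to place 342. The summed FPKM of the 10 genes was 107, 74.9, 105, 77.0, 129, 148 and 192 on the 7 days in turn. The share of CPE in this sum was 28.9% on day 0 and 43.0% on day 18. That of VGF was 50.5% on day 0, 45.9% on day 1, 61.0% on day 2 and 32.4% on day 4. It was 34.9% on day 5, 7.76% on day 11 and 15.4% on day 18.

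SST, the only classical neuropeptide precursor among the 10, had the widest range. SST (chr3:187386696-187388201, minus strand), whose cleavage site is printed above, stood at 0.834 FPKM on day 0, 0.222 on day 1, 0.275 on day 2, 1.24 on day 4, 3.94 on day 5, 13.7 on day 11 and 5.74 on day 18. The value on day 11 was 61.6-fold that of day 1 and 16.4-fold that of day 0, and day 18 was 2.38-fold lower than day 11. From day 0 to day 18 the difference was 6.89-fold, or 2.65 on the log2 scale, with 1.99% of coding records above it. SST held rank 11696 among coding records on day 0, 4411 on day 11 and 7309 on day 18, so its end point depends on which late day is read.

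Ordered by FPKM on day 0, VGF and CPE stood well above SCG2, which was followed by SCG3, PCSK2, CHGB, CHGA, SST, PCSK1 and SCG5. On day 18 the order was CPE, VGF, SCG3, SCG2, CHGB, CHGA, SST, PCSK1, PCSK2 and SCG5. The neighbours SCG3 and SCG2, at 21.5 and 20.9 FPKM, and PCSK1 and PCSK2, at 3.51 and 3.49 FPKM, are close, and with no spread between cultures neither order can be called.

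The steps between neighbouring days differed in how many of the 9 genes moved by at least 2-fold. From day 0 to day 1, the first day after the change of factors, CHGB was higher and SCG2, PCSK2 and SST were lower, beside 3.6% of coding records higher and 3.09% lower. The differences were 1.18 for CHGB, -1.03 for SCG2, -1.09 for PCSK2 and -1.53 for SST, and relative to the median of that step (-0.11) SST alone was at least 2-fold lower. From day 1 to day 2 none of the 9 passed 2-fold in either direction, beside 0.136% of coding records higher and 0.144% lower. From day 2 to day 4 SST was higher (1.83) and VGF lower (-1.36), where 0.127% and 0.653% of coding records were.

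In the step across the replating all 9 genes had a higher value on the later day. Other steps came close: 8 of the 9 rose in the step that ends on day 2, and 8 in the step that ends on day 11. The lowest such count was 4, in the step that ends on day 1. The share of coding records with any rise is not given here, so these counts have no background beside them. From day 4 to day 5, SST (1.60), PCSK1 (1.02) and SCG2 (1.00) passed 2-fold and none was lower by as much, beside 0.254% of coding records higher and 0.0509% lower. The median difference of this step was 0.68 over the 9 genes and -0.07 over all coding records. SCG2 and PCSK1 lay just past the threshold, and day 5 has 1 culture fewer than the other days.

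Between day 5 and day 11, SST (1.77) and PCSK2 (1.30) were at least 2-fold higher and VGF (-1.96) lower, beside 1.8% and 4.24% of coding records. From day 11 to day 18, VGF was higher (1.36) and SST lower (-1.24), beside 0.839% and 3.72%. In this last step SST lay at -0.96 relative to the median of coding records, just short of 2-fold. CHGA, CHGB, SCG2, SCG3 and CPE continued upwards from day 11 to day 18 by 0.12 to 0.55 on the log2 scale, whereas PCSK1 (-0.33) and PCSK2 (-0.35) had passed their highest day.

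**Figure D4:**
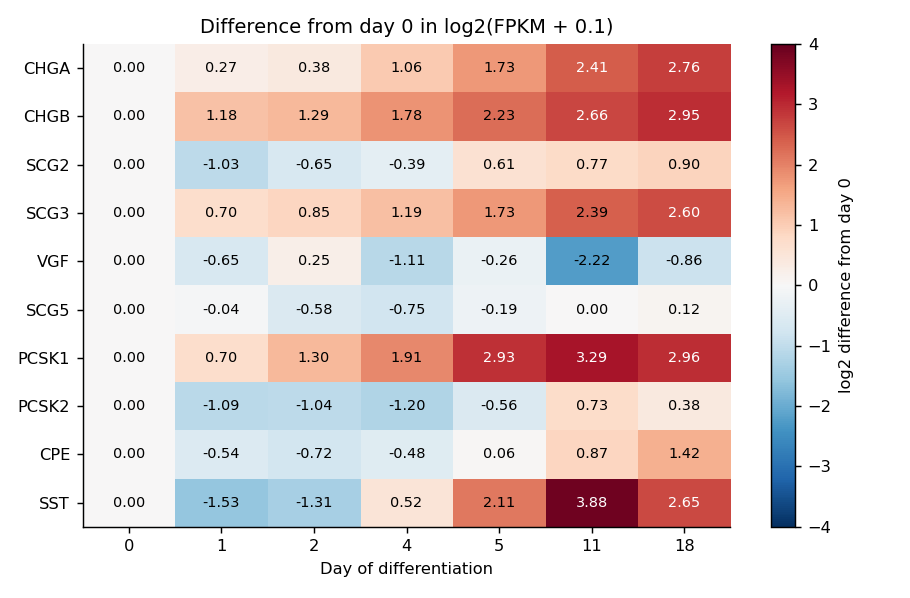
Difference of each day from day 0 in log2(FPKM + 0.1) for the 10 genes (rows) on the 7 days (columns), red for higher and blue for lower, with the value in each cell. CHGA, CHGB, SCG3 and PCSK1 are above day 0 on every later day. SCG2, SCG5, PCSK2, CPE and SST are below it on days 1 and 2, and VGF is above it on day 2 only.

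Likeness of course was measured as the root-mean-square difference of log2(FPKM + 0.1) over the 7 days, after each record had been centred on its own mean. Of the 36 pairs among the 9 genes, CHGB and SCG3 were the most alike (0.182), followed by CHGA and SCG3 (0.221) and PCSK2 and CPE (0.331). VGF and SST were the least alike (2.49). Among all coding records that passed the filter, those nearest to SCG3 were LRRN2 (0.0571), SULT4A1 (0.0768) and RIMS1 (0.105), and those nearest to CHGB were the axonal kinesin KIF5A (0.109), the vesicle membrane protein SCAMP5 (0.149) and LRRN2 (0.151). TSPAN7 (0.117), AKR1C2 (0.144) and the vesicle calcium sensor SYT7 (0.149) were nearest to CHGA. CPE had KIAA1161 (0.118), CD200 (0.119) and ELMO1 (0.152).

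The other genes had looser neighbours. Those of PCSK1 were GPRIN3 (0.188), TMEM163 (0.243) and KLHL35 (0.262), those of PCSK2 were TMEFF2 (0.209), DCLK1 (0.233) and ANGPT1 (0.237), and those of SCG2 were GLRX (0.211), the kinesin KIF5C (0.218) and GDPD5 (0.232). The records closest to VGF were the haem oxygenase HMOX1 (0.299), PRNP (0.365) and the Wnt antagonist DKK1 (0.367). SST had the loosest: a coding record without a symbol (0.750), the transcription factor POU4F2 (0.772) and C1QL4 (0.782). These distances rest on 7 points per gene, which share the cultures of each day. Profiles were centred but not scaled, so distances also grow with the range of a gene, which was widest for SST.

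The other processing enzymes included genes that were higher and genes that were lower on day 18 than on day 0. Of 15 enzymes and inhibitors listed, 11 passed the filter, and 1 was at least 2-fold higher on day 18 than on day 0, 6 at least 2-fold lower, beside 7.57% and 29.9% of coding records, with a median of -1.01 beside -0.60. Relative to that median, 1 was higher and 3 were lower. The 1 higher was PCSK1N, which encodes the granin-like inhibitor of PCSK1, at 6.14 FPKM on day 0 and 62.1 on day 18 (3.32). The lower ones were the convertases PCSK6 from 1.96 to 0.133 (-3.15), FURIN from 7.43 to 2.20 (-1.71), PCSK7 (-1.06) and PCSK5 (-1.01), together with the endothelin-converting enzyme ECE1 from 49.8 to 7.92 (-2.64) and the carboxypeptidase CPD (-1.06). PCSK7, PCSK5 and CPD are within 2-fold relative to the median. PAM, which amidates the ends of finished peptides, was at 48.4 FPKM on day 0 and 55.4 on day 18.

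Genes of vesicle formation and release included some with larger differences than any of the 10 genes. Of 18 listed, 13 passed the filter, 7 were at least 2-fold higher and 1 lower, beside 7.57% and 29.9% of coding records, with a median of 2.20 beside -0.60, and relative to the median of coding records 8 were higher and 0 lower. SYT4, a synaptotagmin of dense-core vesicles, went from 1.34 to 47.6 FPKM (5.05), the vesicle GTPase RAB3A from 2.87 to 39.8 (3.75), and CADPS, which primes the vesicles for fusion, from 0.922 to 10.7 (3.40). SYT7 (2.63), BAIAP3 (2.63), HID1 (2.25) and the motor protein KIF1A, which carries the vesicles along axons (2.20), were the other 4. The related priming factor CADPS2 was lower (-1.05, or -0.45 relative to the median).

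Most other neuropeptide precursors were low throughout. Of 30 listed, 8 passed the filter, 2 were higher and 2 lower by 2-fold, beside 7.57% and 29.9% of coding records, with a median of -0.71 beside -0.60, and relative to the median of coding records 2 were higher and 1 lower. NPPC, the precursor of C-type natriuretic peptide, was like SST highest on day 11: it had 0.277 FPKM on day 0, 30.7 on day 11 and 8.38 on day 18 (4.49). UCN, the precursor of urocortin, was also higher (1.94). NPY, the precursor of neuropeptide Y, was lower, from 4.47 FPKM on day 0 to 0.845 on day 18 (-2.27), as was CORT (-1.53), whose record carries another symbol as well. TAC1, the substance P precursor, was at 27.8 and 26.9 FPKM on the first and last day. NMU had the highest mean level of the list, with 41.0 FPKM on day 0 and 22.1 on day 18 (-0.88, within 2-fold). Of the 5 somatostatin receptors none passed the filter: SSTR2 reached 2.11 FPKM on day 11, and the other four stayed near 0.

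Of 10 transcription factors listed for secretory and somatostatin genes, 9 passed, and 5 were higher and 3 lower by 2-fold, beside 7.57% and 29.9% of coding records. The median was 1.25 beside -0.60, and relative to that of coding records 5 were higher and 0 lower. INSM1, a factor of neuroendocrine differentiation, had 0.694 FPKM on day 0, 13.6 on day 11 and 5.84 on day 18 (2.90). NEUROD1 (1.87, in a record shared with another symbol), SATB1 (1.37) and PAX6 (1.25) were higher as well. REST, the repressor of neuronal genes, was at 7.68 FPKM on day 0 and 3.11 on day 18 (-1.28). Of the factors that bind cyclic AMP response elements, CREM (-1.53) and ATF1 (-1.26) were past 2-fold and CREB1 (-0.58) was not, and relative to the median of coding records none of REST, CREM, ATF1 and CREB1 was past 2-fold. LHX6, a factor of cortical somatostatin neurons, never exceeded 0.208 FPKM.

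Markers of several cell types differed over the same days. Beside all counts in this paragraph, 7.57% of coding records were higher and 29.9% lower, or 14.7% and 12.1% relative to the median. Of 8 neuron markers 7 were at least 2-fold higher on day 18 and 0 lower. Their summed level was 366 FPKM on day 0 and 1371 on day 18, with STMN2 alone at 32.3 and 727. GAP43 was at 193 and 173 FPKM. Of 6 cell division markers all 6 were lower (491 to 82.3 FPKM in sum). Of 6 progenitor markers 1 was higher and 2 were lower, or 1 relative to the median (746 to 307). The shares of progenitor markers lower are near those of all coding records. Of 8 mesenchymal markers 6 passed and 5 were lower, or 4 relative to the median (658 to 56.8 in sum). COL1A1 is listed at 0 on every day although COL1A2 was at 33.6 FPKM on day 0, so its 0 may be a failed estimate. Among 8 glia markers 2 passed, of which S100B was lower (-1.01, or -0.42 relative to the median), and GFAP, AQP4, OLIG1 and OLIG2 did not exceed 0.342 FPKM. The part of these shifts in the levels of the 10 genes was not tested.

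Markers of GABAergic interneurons and of pituitary and endocrine pancreas cells were at or near 0. None of 8 GABAergic interneuron markers passed the filter or exceeded 0.266 FPKM on any day, GAD1 was at 0.0692 FPKM on day 0 and 0.266 on day 18, and NKX2-1 was listed at 0 on all days but day 18. Of 6 pituitary and endocrine pancreas markers none exceeded 0.0755 FPKM on any day, and INS, GH1 and PPY were listed at 0 throughout.

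**Figure D5:**
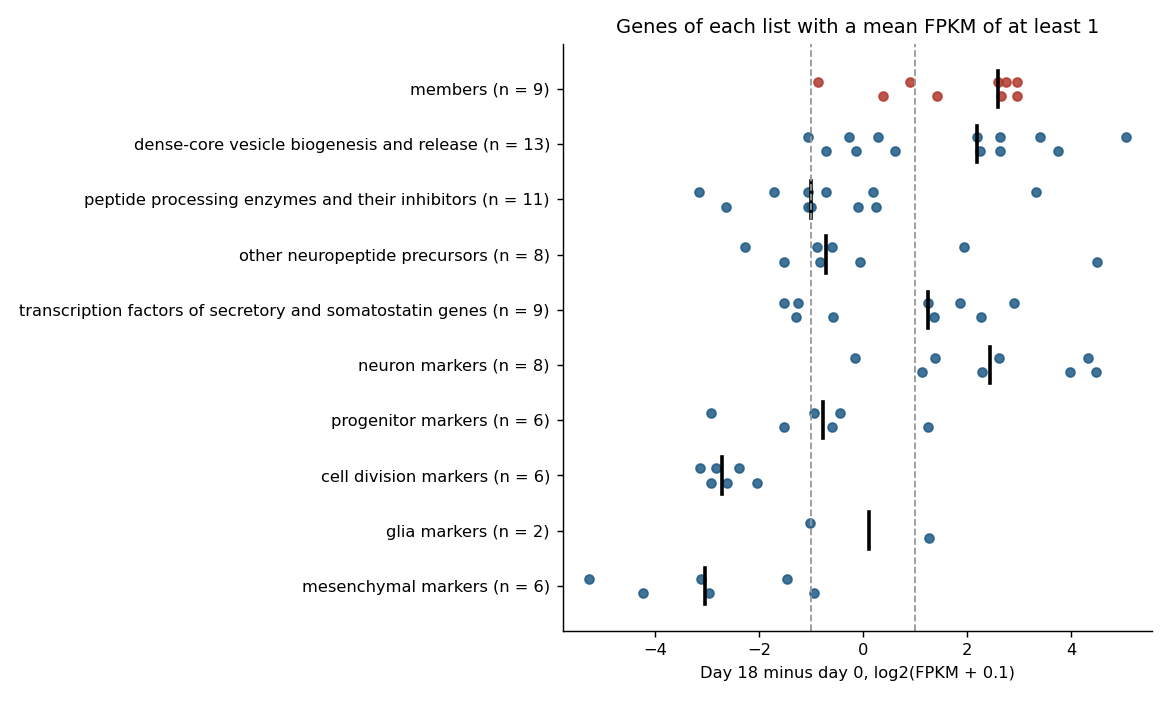
Day 18 minus day 0 in log2(FPKM + 0.1) (horizontal axis) for the genes of each list with a mean of at least 1 FPKM (points), with the median of the list as a black bar and 2-fold as dashed lines. The 10 vesicle genes (red, 9 passed, median 2.60) and the genes of vesicle biogenesis and release (median 2.20) lie mostly to the right, like the neuron markers (2.45), whereas the processing enzymes have a median of -1.01.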

How the data were processed

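The authors aligned paired-end polyadenylated RNA reads to hg19 with TopHat2, assembled them with Cufflinks and quantified them with Cuffdiff2, keeping default options; versions and counting by strand are not given in the sources used here. The deposited FPKM values hold 1 estimate per record and day over all cultures of that day, so 0 columns hold a single sample, depth is unknown and no test was made. Of the deposited table of neighbouring-day comparisons, the symbols, coordinates and repeated FPKM values were read, and the fold changes, test statistics, p-values and q-values were not used. FPKM is relative to each library's total: the sum over all records was 413978 on day 0 and 251156 on day 18, while 11468 and 11544 coding records were at 1 FPKM or more, so differences are also given relative to the median of coding records.

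Samples were grouped by day from their titles. Differences were taken in log2(FPKM + 0.1) with a filter of mean FPKM at least 1, and at least 2-fold was counted. For each symbol the coding record with the highest mean was used, older symbols included; list genes in records shared with other symbols were kept. The members and all gene lists were chosen with earlier results of these data known. All 10 members are named, list genes past 2-fold by size, and the 3 records nearest to each member. List genes named below 2-fold or below the filter (PAM, TAC1, NMU, SSTR2, LHX6, CREB1 and single markers) were chosen after their values were seen. Some list genes are not reported here by name. Loci are hg19 as deposited, and each member overlapped its GENCODE gene on the same strand. Promoters came from RefSeq (GRCh38.p14). Alternatives changed the pseudocount, filter, threshold, centring and end day. Calculations used Python 3.11.15, pandas 2.3.3 and numpy 2.4.6, tested on simulated data.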

Additional observations from a re-analysis of the deposited data

How the results depend on the processing

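The count of genes at least 2-fold higher on day 18 than on day 0 stayed within 5 to 7 under every alternative tried. The count lower, 0 as reported, was 1 (VGF) with a 1.5-fold threshold and 1 with day 11 as the end point. The median of 2.60 was 2.39 with day 11 as the end point, 2.01 with a mean of at least 0.1 FPKM or no filter, 1.73 with a pseudocount of 1, and 3.20 relative to the median of coding records. Over the 6 steps between neighbouring days, 8 higher and 6 lower values passed 2-fold; a 1.5-fold threshold gave 20 higher, a 4-fold threshold 0 and 0, a pseudocount of 1 gave 3 and 3, and centring on the median left 3 lower. For the 5 pathway lists together, 15 genes were higher and 12 lower; a mean of at least 0.1 FPKM gave 23 higher, no filter 24, and centring on the median left 4 lower. No paired analysis was possible because the columns hold 1 value per day, carry no replicate number and allow no test. For the same reason leaving out each culture in turn was not run. The depth behind each value is unknown, which limits most what can be said of SCG5 and of the early values of SST and PCSK1.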

Other observations

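Next to CPE lies a lincRNA record with its lowest and highest values on the same days as CPE. The record linc-TLL1-2 (chr4:166419743-166430158, hg19, plus strand) starts 261 bases after the end of the CPE record on the same strand. The GENCODE gene of CPE ends beyond that record, at 166419699, and so closer to linc-TLL1-2. Whether linc-TLL1-2 is a transcript separate from CPE was not tested. The levels of linc-TLL1-2 were 0.10, 0.0704, 0.0638, 0.176, 0.302, 0.622 and 0.975 FPKM on the 7 days in turn, lowest on day 2 and highest on day 18. It was singled out after its values were seen.

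Antisense lincRNA records overlap exons of SCG3 and CPE. Those of SCG3 reached at most 0.0488 FPKM, and that of CPE was listed at 0 on every day.

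The full cyclic AMP response element, held by 4.01% of the symbols of coding records that passed the filter, was counted in the promoters of the other lists. It was held by 1 of 13 genes of vesicle biogenesis and release with an entry (KIF1A), 1 of 25 other neuropeptide precursors (CARTPT), 2 of 8 transcription factors (CREM and PAX6), 0 of 13 processing enzymes and 0 of 5 somatostatin receptors.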
